A study of Mus musculus with 2 samples.

Results

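The genes described here repair DNA or signal its damage: homologous recombination, the Fanconi anaemia pathway, mismatch, excision and end-joining repair, and the damage kinases. They were taken from a list of 52 gene symbols, and all probe sets whose array annotation gives 1 symbol from that list were used. The list matched 115 of 34945 probe sets with 1 symbol, which name 51 of 18193 genes. Xrcc2 had no such probe set and was not analysed here. The transcripts were measured on an Affymetrix mouse array in total RNA of whole liver. The animals were BALB/c nude mice, which lack a thymus. One group is liver at day 0, labelled as a partial hepatectomy control. The other is liver taken at day 3 after partial hepatectomy by surgery, labelled as active regeneration. A resection of 70% is recorded for both groups. Each group is 1 array, and the labels do not say whether it holds RNA of 1 animal or of a pool. Sham-operated mice were not analysed here, so day, surgery and animal cannot be told apart, and no value below has a replicate or a test.

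Hepatocytes are quiescent in adult liver and re-enter the cell cycle after part of the organ is removed. Copying the genome makes breaks and stalled forks, and recombination with the sister chromatid repairs them, which ties many recombination and Fanconi genes to S phase. Excision repair of damaged bases and bulky lesions, and direct joining of broken ends, also work in cells that do not divide. The comparison asks which of these genes differed in signal between the day 0 control liver and the day 3 regenerating liver.

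Signals are MAS5 values, a linear brightness in arbitrary units that combines the probes of a probe set. A floor of 68.3, the higher of the array medians, was set under all signals, and each gene takes the value of its brightest probe set by mean log2 signal. All ratios are day 3 over day 0. Where the brightest probe set of a gene lay under the floor at day 0, its ratio is only a lower bound. Such a bound is given with the words at least and holds for that probe set alone.

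Of the 51 genes, 50 were above the floor on at least 1 array, 40 of them on both arrays and 10 at day 3 only. Bard1, the RING partner of Brca1, lay under the floor on both arrays with signals of 2.83 and 2.53 and enters no count below. At day 3, 23 of the 50 were at least 2-fold higher and 0 were at least 2-fold lower. Over all 12634 genes analysed, 12.9% were at least 2-fold higher and 5.62% at least 2-fold lower. The median log2 ratio was 0.80 over the 50 genes and 0.08 over all genes. At least 4-fold higher were 7 of the 50, against 3.27% of all genes. Passing the floor only at day 3 favours a higher ratio, so the genes above it on both arrays are also given: 15 of those 40 were at least 2-fold higher, against 11.7% of all genes above the floor on both arrays. Their median log2 ratio was 0.54. In whole liver, more cells of a type and more RNA per cell cannot be told apart.

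**Figure D1:**
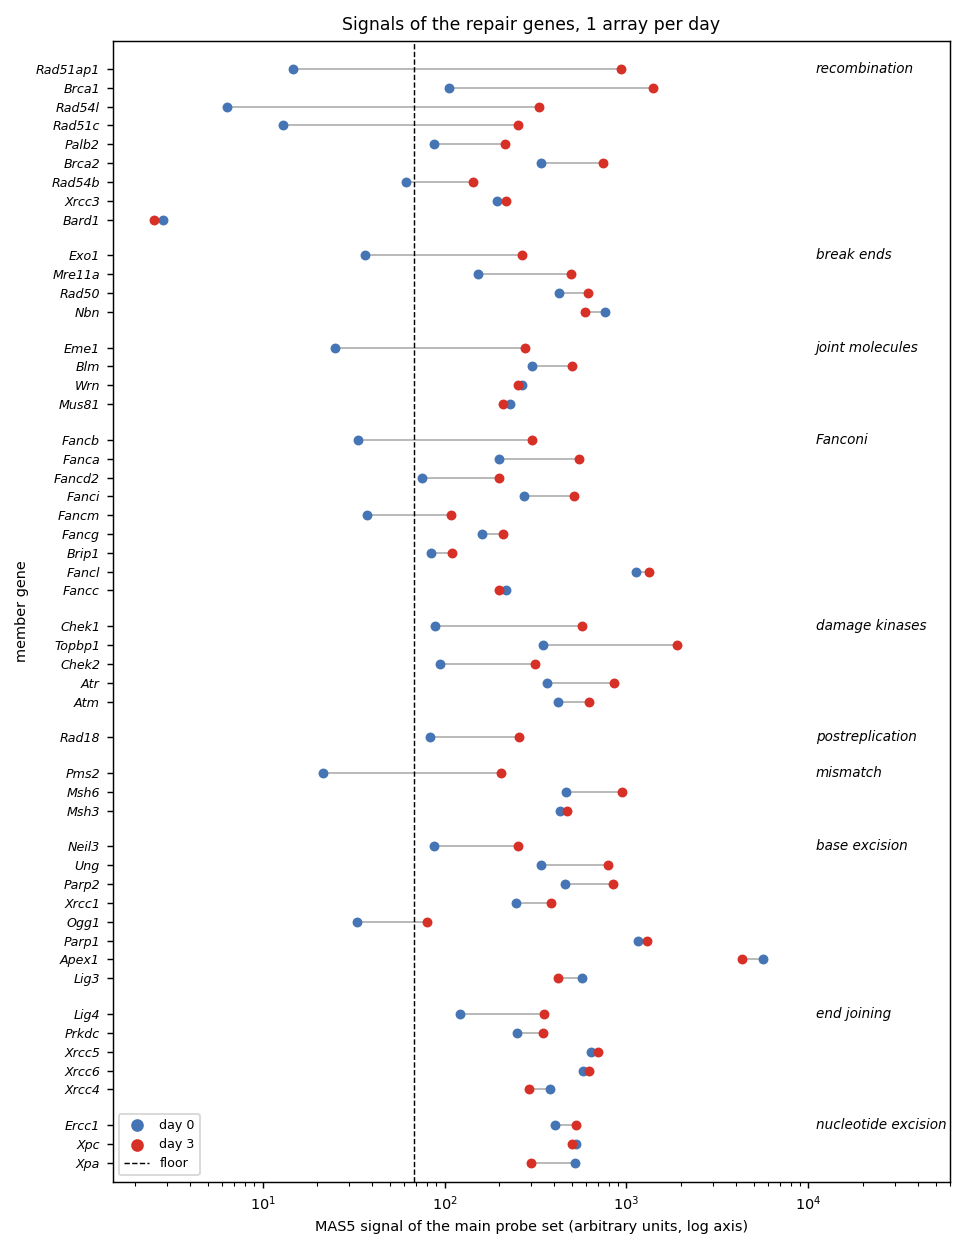
Signal of the main probe set of each of the 51 genes at day 0 (blue) and day 3 (red), grouped by role, on a log axis in arbitrary units. The dashed line is the floor of 68.3, there is 1 array per day, and signals of different genes are not comparable in level. The widest gaps are in the recombination group, with Rad51ap1 at 14.7 and 933, and the nucleotide excision genes are all less than 2-fold apart.

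The differences were uneven across roles. At least 2-fold higher were 7 of 8 recombination genes, 4 of 5 in the damage kinase group and 3 of 9 Fanconi genes. So were 2 of 4 genes that process broken ends, 1 of 4 that resolve joined molecules, 2 of 3 mismatch repair genes, 2 of 8 base excision genes and the postreplication gene Rad18. The mismatch count, like the 23, includes Pms2 by its main probe set, although no direction can be given for that gene. End joining had 1 of 5 genes and nucleotide excision 0 of 3 past 2-fold on the main probe sets, beside 12.9% of all genes. The median log2 ratio was 1.73 for the damage kinase group and 1.60 for recombination, and it was 0.14 for end joining and −0.07 for nucleotide excision. The last 2 signs depend on the scaling: end joining was at −0.06 and −0.03 after median centring and quantile normalisation, and nucleotide excision ranged from −0.27 after median centring to 0.23 after scaling to the hybridisation spikes. These groups hold few genes and were not compared by a test.

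**Figure D2:**
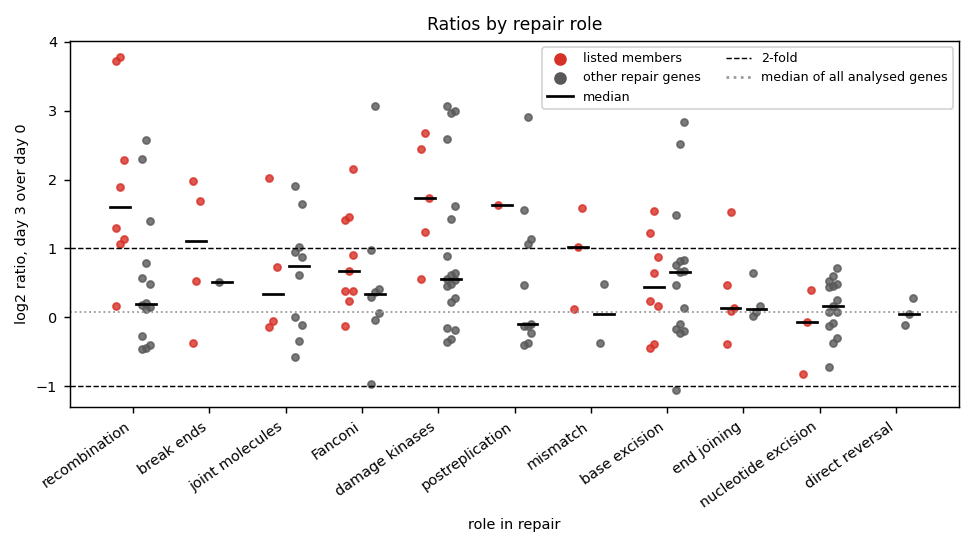
Log2 ratio of day 3 over day 0 for each listed gene (red) and each further repair gene (grey), by role, with a black bar at the median, dashed lines at 2-fold and a dotted line at the median of all genes (0.08). Listed recombination genes have a median of 1.60 and further recombination genes one of 0.19.

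Among the recombination genes, Brca1 had a signal of 106 at day 0 and 1399 at day 3, a 13.2-fold higher value. Its protein is a ubiquitin ligase that promotes resection of broken ends and recruits the later factors. Rad51ap1, which stimulates strand exchange, went from 14.7 to 933 and was at least 13.7-fold higher on its main probe set. Its further probe sets, also under the floor at day 0, disagreed in size. Their log2 ratios on the deposited signals were 6.87, 2.19 and 3.25, against 5.99 on the main one. Rad54l, a motor protein that helps the broken strand pair with its template, went from 6.35 to 331 and was at least 4.85-fold higher. Brca1 was above the floor on both arrays, and the other two only at day 3. Rad51c, which acts in strand invasion, went from 12.9 to 254, at least 3.73-fold. Palb2, which links Brca1 to Brca2, had signals of 87.9 and 216 (2.46-fold higher). Brca2, which mediates the step before strand invasion, was at 338 and 744, a 2.20-fold higher value. For Rad54b, a relative of Rad54l, the signals were 61.7 and 143 (at least 2.09-fold higher), and probe sets annotated with Fsbp besides Rad54b were not used. Brca2 and Rad54b passed 2-fold narrowly and fell under it after median centring (log2 ratios of 0.94 and 0.87) and quantile normalisation (0.93 and 0.96). Xrcc3, whose protein partners that of Rad51c, was at 194 and 218, under 2-fold.

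Short upstream sequences are shown for 7 genes, Brca1 and Rad51ap1 with the highest ratios at the floor used here and 5 of the 8 with a match to an E2F site. E2F factors act on genes of S phase, and their part in these ratios was not tested. The sequences are those of RefSeq on GRCm38.p6 and cover the 200 bases before the annotated start of transcription. With the floor at the 25th percentile Rad54l, a bound here, had the highest log2 ratio (4.07, against 3.72 for Brca1 and 3.25 for Rad51ap1). At that floor another probe set represents Rad51ap1. Capitals mark an E2F site (TTTCCCGC, TTTCGCGC, TTTGCCGC or TTTGGCGC) or a CCAAT box (CCAAT), on either strand, so GCGGGAAA, GCGCGAAA and ATTGG are matches on the opposite strand.
Brca1 (13.2-fold higher; chr11:101551956-101552155, minus strand): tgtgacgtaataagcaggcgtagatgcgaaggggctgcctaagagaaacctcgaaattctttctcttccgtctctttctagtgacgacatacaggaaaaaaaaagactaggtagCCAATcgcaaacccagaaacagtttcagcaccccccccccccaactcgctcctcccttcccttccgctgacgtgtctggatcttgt
Rad51ap1 (at least 13.7-fold higher; chr6:126939588-126939787, minus strand): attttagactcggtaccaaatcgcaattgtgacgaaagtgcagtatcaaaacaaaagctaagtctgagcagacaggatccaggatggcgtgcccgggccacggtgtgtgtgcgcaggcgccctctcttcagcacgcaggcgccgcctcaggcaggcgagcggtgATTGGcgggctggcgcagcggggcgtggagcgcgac
Topbp1 (5.42-fold higher; chr9:103305127-103305326, plus strand): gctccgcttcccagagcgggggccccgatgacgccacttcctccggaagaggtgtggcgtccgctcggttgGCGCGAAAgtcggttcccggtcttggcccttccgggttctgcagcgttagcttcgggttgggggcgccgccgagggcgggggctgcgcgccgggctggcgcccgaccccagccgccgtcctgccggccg
Chek2 (3.32-fold higher; chr5:110839783-110839982, plus strand): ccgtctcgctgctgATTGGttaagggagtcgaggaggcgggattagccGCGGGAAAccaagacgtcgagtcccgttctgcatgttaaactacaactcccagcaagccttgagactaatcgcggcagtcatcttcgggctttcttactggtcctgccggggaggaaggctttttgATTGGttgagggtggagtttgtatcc
Brca2 (2.20-fold higher; chr5:150522421-150522620, plus strand): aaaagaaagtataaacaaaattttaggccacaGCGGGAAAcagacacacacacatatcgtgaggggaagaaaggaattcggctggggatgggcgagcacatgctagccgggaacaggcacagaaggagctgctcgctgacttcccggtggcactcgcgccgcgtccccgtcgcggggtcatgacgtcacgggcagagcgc
Fancg (1.31-fold higher; chr4:43010302-43010501, minus strand): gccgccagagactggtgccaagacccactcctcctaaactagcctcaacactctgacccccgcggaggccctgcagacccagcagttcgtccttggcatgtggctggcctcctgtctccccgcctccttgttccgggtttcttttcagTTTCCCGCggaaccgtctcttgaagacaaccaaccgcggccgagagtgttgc
Xrcc6 (a ratio of 1.07; chr15:82016169-82016368, plus strand): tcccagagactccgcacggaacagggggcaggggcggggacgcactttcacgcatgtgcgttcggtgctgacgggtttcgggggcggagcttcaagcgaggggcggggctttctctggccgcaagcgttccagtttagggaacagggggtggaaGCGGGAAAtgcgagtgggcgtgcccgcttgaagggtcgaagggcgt
Topbp1, Chek2 and Brca2 hold an E2F site at bases −129 to −122, −152 to −145 and −168 to −161, counted back from the start. Fancg and Xrcc6, both under 2-fold, hold one nearer to it, at −52 to −45 and −46 to −39. Brca1 and Rad51ap1 show a CCAAT box and no E2F site of these letters.

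RefSeq promoters of 300 bases, 250 before and 50 after the start, were present for 42 of the 50 genes. An E2F site was in 8 of the 42 (19.0%), against 4.67% of 10189 analysed genes with a promoter and 2.61% of all 27025 genes in the table. By response, it was in 5 of 20 genes at least 2-fold higher and in 3 of 22 under 2-fold. Of all analysed genes at least 2-fold higher, 100 of 1287 (7.77%) held one. The remaining 3 genes with a match are Rad51c and Msh6, whose match lies downstream of or across a start, and Msh3, in which TTTGGCGC and TTTCGCGC overlap on opposite strands. A CCAAT box was in 22 of the 42 (52.4%), against 42.5% of analysed genes. The CHR element of mitotic genes (TTTGAA) was in 1 of the 42, Eme1, against 14.6% of analysed genes. A match of letters is a description and does not show that a factor binds there. The promoters of these genes had a mean GC content of 59.4%, close to 60.4% for all analysed genes.

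Of the genes that process broken ends, Exo1, an exonuclease of resection and mismatch repair, went from 36.7 to 268, at least 3.93-fold higher. Mre11a, the nuclease of the complex that first senses a break, was at 153 and 494 (3.23-fold higher). Its partners did not follow it past 2-fold. Rad50, the tethering subunit, had signals of 428 and 616, a ratio of 1.44. Nbn, the regulatory subunit, was at 766 and 591, 1.30-fold lower, with a log2 ratio from −0.57 to −0.08 across the scalings.

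Eme1 and Mus81 form a nuclease that cuts joined DNA molecules, and they differed. Eme1 went from 25.1 to 277 and was at least 4.05-fold higher, while Mus81 had 230 and 209, a log2 ratio of −0.14, or 0.15 after spike scaling. Blm, the Bloom syndrome helicase that dissolves such joints, was at 302 and 502, a 1.66-fold higher value that reached 2-fold after spike scaling (log2 ratio 1.02). The Werner syndrome helicase gene Wrn was at 265 and 255, with a log2 ratio of −0.06, or 0.23 after spike scaling.

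The Fanconi pathway removes crosslinks between DNA strands. Its core complex attaches ubiquitin to a pair of proteins, FANCD2 and FANCI, and of the core genes Fancb and Fanca passed 2-fold. Fancb went from 33.6 to 304, at least 4.45-fold higher, and Fanca from 199 to 548, 2.75-fold higher. Fancm, which anchors the core to DNA, was at 37.6 and 109, at least 1.59-fold higher. It passed 2-fold with the floor at the 25th percentile (log2 ratio 1.53) and with no floor (1.22). Under 2-fold were Fancg with 160 and 209, Fancl, the ubiquitin ligase subunit, with 1123 and 1322, and Fancc with 216 and 199. Both targets of the core complex had a higher signal at day 3, with 1 of them past the threshold. Fancd2 was at 74.7 and 199, a 2.66-fold higher value, and Fanci at 273 and 514, 1.88-fold higher and just under the threshold. After spike scaling Fanci had a log2 ratio of 1.20. Brip1, a helicase that binds BRCA1, was at 84.0 and 109, a 1.30-fold higher value.

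The kinases report damage and stalled forks to the cell cycle machinery. Chek1, the effector kinase of stalled forks, had a signal of 89.0 at day 0 and 568 at day 3 and was 6.39-fold higher. Topbp1, the activator of the kinase ATR, went from 349 to 1889, 5.42-fold higher. Chek2, the effector kinase of broken ends, was at 94.4 and 313 (3.32-fold higher). Atr itself had 363 and 858, a 2.36-fold higher value. Atm, the kinase that responds to broken ends, was the one gene of this group under 2-fold, at 423 and 624, a ratio of 1.47. Rad18, the ubiquitin ligase that lets forks pass lesions, was at 83.5 and 257 and 3.08-fold higher.

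In mismatch repair, Msh6, a subunit of the complex that recognises mispaired bases, was at 464 and 943, 2.03-fold higher. It stood just past the threshold, and its log2 ratio was 0.82, 0.87 and 0.93 after median centring, quantile normalisation and loess. Msh3, its counterpart for larger loops, had 430 and 469, under 2-fold. Pms2, a subunit of the nuclease that follows recognition, was at least 3.00-fold higher on its main probe set, with 21.6 and 205. Another Pms2 probe set went the other way, with 132 at day 0 and 52.6 at day 3, at least 1.93-fold lower. With the floor at the 25th percentile that second probe set represents the gene, at a log2 ratio of −1.32, so no direction can be given for Pms2.

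Base excision repair removes small lesions. Among its DNA glycosylases, Neil3 went from 87.1 to 253, 2.91-fold higher, and Ung, which removes uracil, from 337 to 787, 2.34-fold higher. Ogg1, which removes oxidised guanine, was at 33.0 and 80.0, close to the floor. The listed genes of later steps were under 2-fold. Outside the list, Fen1 and Lig1, which also serve replication, were 7.15-fold and 5.71-fold higher. Parp2, a sensor of strand breaks, was at 459 and 839 (1.83-fold higher, log2 ratio 1.16 after spike scaling). The scaffold gene Xrcc1 was at 246 and 384. Parp1, the main break sensor, had 1160 and 1300 on the arrays, with a log2 ratio of 0.16, or −0.04 after median centring. Lig3, a DNA ligase, was at 573 and 422, and Apex1, the nuclease that opens the abasic site, at 5628 and 4297. Lig3 was 1.36-fold and Apex1 1.31-fold lower, and in Lig3 another probe set had a log2 ratio of 0.42.

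In end joining, Xrcc5 and Xrcc6, the subunits of the Ku ring that binds broken ends, had signals of 637 and 700 and of 579 and 620. Their log2 ratios of 0.14 and 0.10 were −0.06 and −0.10 after median centring. Prkdc, the kinase that Ku recruits, was at 251 and 349, and Xrcc4, the ligase cofactor, at 382 and 292. Lig4, the ligase that XRCC4 holds, stood apart from it with 122 and 350, 2.88-fold higher. In nucleotide excision, Xpa, which verifies the lesion, was at 523 and 297. It was 1.76-fold lower and the lowest of the 50, and passed 2-fold after median centring and quantile normalisation, with log2 ratios of −1.02 and −1.04. Xpc, the lesion sensor, was at 527 and 503, and Ercc1, a subunit of the nuclease that cuts beside the lesion, at 403 and 530.

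Several probe sets of a gene are the only repeat measurement on these arrays. They share the RNA sample, so they do not measure differences between animals. Of the 115 probe sets, 85 were above the floor on at least 1 array, and 33 of these were at least 2-fold higher and 0 at least 2-fold lower. Over all 21676 such probe sets of the array, 11.2% were at least 2-fold higher and 6.07% at least 2-fold lower. The log2 ratio differed between probe sets of 1 gene with an SD of 0.44 per probe set over 4380 genes and 0.29 over the 10 listed genes with 2 probe sets above the floor on both arrays. Those 10 genes were all under 2-fold, so the 0.29 does not describe the 23 higher genes. Of the 23 higher genes, 9 had a further probe set above the floor, and in 6 of them another one also passed 2-fold. In these 6 genes, each further probe set past 2-fold was above the floor at day 3 only, which favours a higher ratio. Chek1 is an example: its further probe sets had log2 ratios of at least 0.20, 1.72 and 1.97 beside 2.68 on the main one. Rad18 had at least 1.46, 1.39 and 0.62 beside 1.62. In both genes the further probe sets lay under the floor at day 0, so these are bounds. On the deposited signals, without a floor, the same Chek1 probe sets had log2 ratios of 3.12, 5.48 and 2.12 beside 2.68. Those of Rad18 were 4.65, 2.28 and 0.80 beside 1.62, so they lay on either side of the main one in both genes. In 2 of the 9 a probe set went the other way, namely Pms2 and Brca1, where it went from 81.1 to 46.6. Brca1's other probe sets had log2 ratios of at least 0.90 and 1.12 beside 3.72 on the main one. Among the genes under 2-fold, Fancg and Ercc1 had another probe set past it, at 2.25-fold and 2.07-fold higher.

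**Figure D3:**
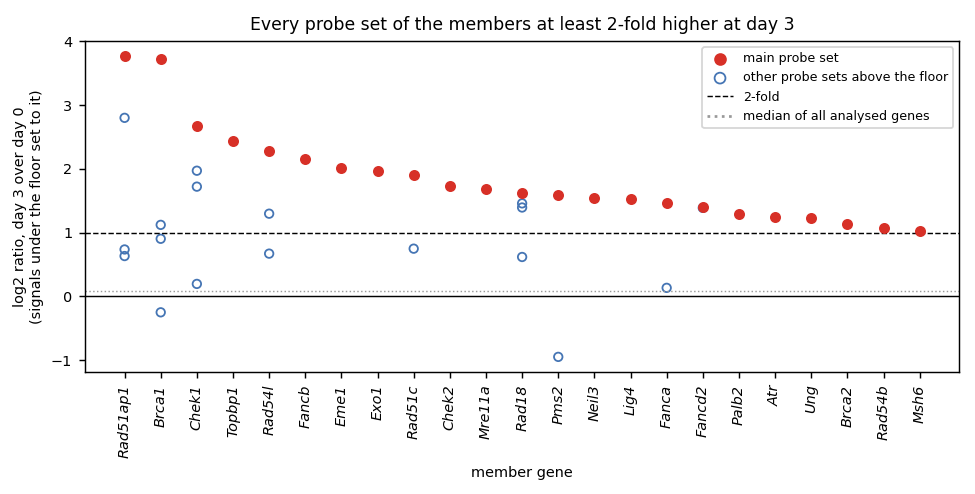
Log2 ratio of day 3 over day 0 for every probe set above the floor of the 23 genes at least 2-fold higher, with the main probe set filled in red and others as open blue circles. Signals under the floor were set to it, the dashed line is 2-fold and the dotted line the median of all genes. Points whose day 0 signal lay under the floor are lower bounds, so their drawn heights give no order among themselves or against the main one. A further probe set lies below 0 in Pms2 and Brca1.

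Repair genes outside the list gave lower counts. Of 112 further genes of these pathways and of direct reversal of base damage, 102 were analysed, 20 were at least 2-fold higher and 1 at least 2-fold lower, with a median log2 ratio of 0.39. The share higher was 19.6%, beside 46.0% for the listed genes and 12.9% for all genes. H2ax, the histone variant phosphorylated at breaks, was at 554 and 4652, 8.40-fold higher. Timeless and Clspn, which hold the fork and pass its signal to Chek1, were 7.97-fold and 7.80-fold higher. Ube2t, the ubiquitin-conjugating enzyme of the Fanconi core, went from 2.81 to 570, at least 8.36-fold higher. Rpa2 and Rpa1, subunits of the protein that coats single-stranded DNA, were 5.97-fold and 2.65-fold higher. A second probe set of Rpa2 gave a log2 ratio of 0.59. Mcm8, a helicase of recombination, was at least 4.90-fold higher. Fen1 and Lig1, which process and seal fragments at the replication fork as well as excision gaps, were 7.15-fold and 5.71-fold higher, and the glycosylase gene Mpg was 2.80-fold higher, with probe sets from 0.15 to 1.49 on the log2 scale. The lesion bypass polymerase gene Polh was 7.48-fold higher, its relative Polk 2.93-fold and Hltf, a ubiquitin ligase of stalled forks, 2.20-fold. A second probe set was under 2-fold in Polk and in Hltf, with log2 ratios of 0.72 and 0.66. Rtel1, a helicase that takes joined strands apart, was 3.76-fold higher, though its probe sets disagreed, with log2 ratios from −1.27 to 1.91. Gen1, a nuclease that cuts joined molecules, was at least 3.14-fold higher and Rmi1, a partner of Blm, 2.02-fold. The probe sets of Rmi1 ranged from 0.35 to 1.02 on the log2 scale. The gene past 2-fold in the other direction was Nthl1, a glycosylase for oxidised pyrimidines, at 198 and 94.7, 2.09-fold lower. By role, 3 of 14 further recombination genes were at least 2-fold higher, against 7 of 8 listed ones. Their median log2 ratios were 0.19 and 1.60. The count was 6 of 19 for further genes of the damage kinase group and 1 of 8 for Fanconi genes. It was 3 of 10 for joined molecules, 3 of 15 for base excision and 4 of 11 for postreplication. Of the further nucleotide excision genes 0 of 15 and of the further end-joining genes 0 of 4 passed 2-fold on their main probe set. Other probe sets did so in Paxx, of end joining, and Ercc8, of nucleotide excision. Their log2 ratios ranged from 0.07 to 2.48 in Paxx and from −1.34 to 0.08 in Ercc8.

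Markers of dividing cells and of several liver cell types also differed between the arrays. All 6 dividing-cell markers were at least 2-fold higher, with a median log2 ratio of 5.11 and a signal, summed over the markers above the floor, of 602 at day 0 and 23420 at day 3. Mki67 was 60.4-fold higher. Hepatocyte markers were well above the floor on both arrays, with Alb at 59840 and 46192 and 0 of 4 past 2-fold. Macrophage markers were at least 2-fold higher in 3 of 6, with a summed signal of 4997 and 11929, and cholangiocyte markers in 3 of 4, with 275 and 1042. Stellate cell markers were higher in 2 of 5 (9396 and 17487) and endothelial markers in 0 of 5 (3733 and 3242). Neutrophil markers passed in 2 of 4 above the floor, with a summed signal of 349 and 1303, while the granule genes Mpo and Camp were under the floor on both arrays. Erythroid markers were lower in 2 of 3 (9334 and 2938). Among B cell markers 2 of 4 and among T and NK cell markers 3 of 4 lay under the floor on both arrays, and 0 of the others passed 2-fold. No marker was listed at 0. The part of cell composition in the repair gene ratios was not tested.

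RNA controls differed as well. Poly-A spikes are bacterial transcripts added to the RNA, and their 3′ over 5′ signal was higher at day 3 in 8 of 8 pairs, by 1.32 to 2.90 times; the pairs are 2 for each of 4 spikes. Among the liver's own transcripts, this quotient was 1.91 times higher for Gapdh and 2.09 times for beta-actin at day 3. That of pyruvate carboxylase was lower, at 42.6 against 71.7 on day 0. The spikes' median log2 ratio was −1.20 at the 5′ end against −0.12 at the 3′ end. Where the probe sets of the repair genes lie along their transcripts was not analysed, and the part of this difference in their ratios was not tested.

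**Figure D4:**
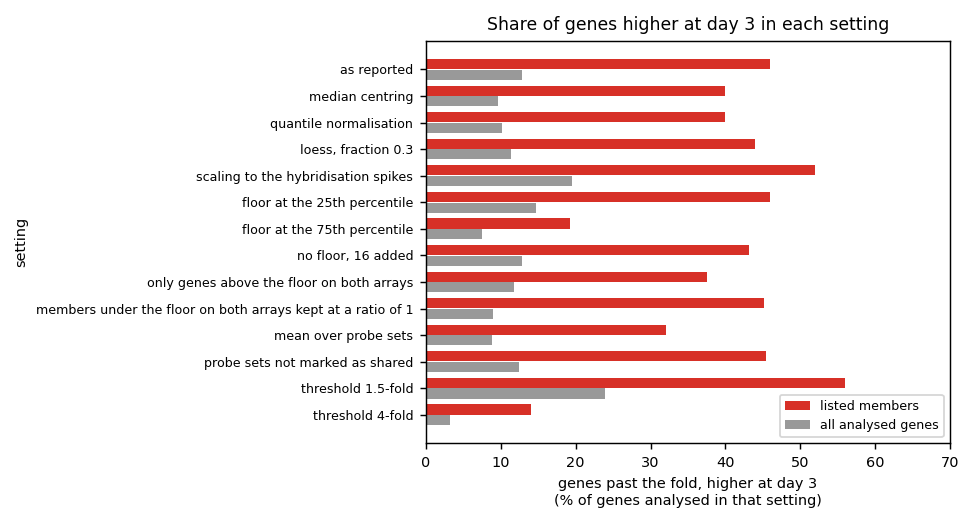
Share of genes at least 2-fold higher at day 3 (or past the fold named) among the listed genes (red) and all analysed genes (grey) in each setting, as bars from 0. The listed genes have the larger share in each of the 14 settings, from 14.0% against 3.27% at 4-fold to 56.0% against 24.0% at 1.5-fold; with the floor at the 75th percentile it is 19.2% against 7.47%.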

How the data were processed

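Each sample is 1 array of biotin-labelled cRNA from 5 µg total RNA, per the labels' protocols. The deposited values are probe set intensity on a linear scale, made with GCOS and MAS5 per the submitters' processing notes, with versions and the scaling target not stated. On both arrays the mean without the top and bottom 2% of probe sets was 500.0. Gene symbols come from the supplied annotation of the array, and probe sets with several symbols (932) or no entry (9160) were left out. Signals were used as deposited, without further scaling, and floored as described. With 1 array per group no test was made, and the number of arrays limits the precision.

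Values are given for every listed gene, and for up to 3 further repair genes per role with the largest ratio in each direction past 2-fold. The genes, role groups, further lists and motifs were chosen with earlier results of these data known. Alternatives were 4 scalings, 3 floors, 4 ways to filter or choose probe sets and 2 fold thresholds. The step from probe sets to gene ratios was tested on simulated data, with ratios planted in genes well above the floor at day 0. The bounds of genes under the floor, the scalings and the motif search were not tested in this way. Python 3.11.15, pandas 2.3.3 and statsmodels 0.14.6 were used.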

Additional observations from a re-analysis of the deposited data

How the results depend on the processing

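The count of listed genes at least 2-fold higher (23) was between 16 and 26 under each of the 4 scalings, the lower floor, no floor and the 3 other choices of probe sets or genes. It was 15 of 40 with only genes above the floor on both arrays, 28 at 1.5-fold, 7 at 4-fold and 5 of 26 with a floor raised to the 75th percentile, where Brca2, Mre11a, Fanca, Ung and Chek1 stayed measured and fell under 2-fold. The median log2 ratio was 0.30 with that floor. The count of genes at least 2-fold lower (0) was 1 after median centring and quantile normalisation and 1 at 1.5-fold, in each case Xpa, and 1 under a floor at the 25th percentile and without any floor, in both cases Pms2. Pms2 reversed there, with log2 ratios of −1.32 and −1.10, because another probe set then represents it. Of the 23 higher genes, 20 passed 2-fold under all 4 scalings, and Brca1 and Topbp1 alone did so in all 11 settings at that threshold, some of which leave out genes under their floor. Against the reported values, the median log2 ratio of all genes shifted by −0.18 with median centring and by 0.27 with spike scaling, and under each the 23 genes had ratios above 1. Median centring used the genes above the floor on both arrays. No paired analysis was possible because each group is 1 array. Signals near the floor limit the ratios of genes low at day 0, which are bounds.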
